A study of Mus musculus with 12 samples.

Results

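The Cyp2c genes encode cytochrome P450 enzymes of the endoplasmic reticulum, and 10 of them were examined here: Cyp2c29, Cyp2c37, Cyp2c38, Cyp2c39, Cyp2c40, Cyp2c44, Cyp2c50, Cyp2c54, Cyp2c55 and Cyp2c70. They were taken by name from the 52636 genes counted, by no threshold on their values, although earlier results of these data were known. All 10 were found by gene identifier, and all 10 passed the filter on low counts, a mean of 12 or more per library. Cyp2c44 is named Cyp2c23 in the GENCODE M21 annotation. The annotation holds 17 Cyp2c genes and pseudogenes in all.

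Many Cyp2c enzymes add oxygen across a double bond of arachidonic acid, a fatty acid released from membranes, and so form epoxyeicosatrienoic acids, which widen vessels and dampen inflammation. Soluble epoxide hydrolase turns these epoxides into diols. The enzymes take electrons from P450 oxidoreductase, and several also metabolize drugs, retinoids and steroids. In mouse liver many Cyp2c genes are expressed most in hepatocytes around the central vein, and their levels depend on the nuclear receptors CAR, PXR and HNF4A and on sex. Cyp2c70 stands apart in function, since it makes the muricholic acids typical of mouse bile.

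Liver RNA was sequenced from 12 C57Bl/6J males aged 16 weeks, with 1 library per mouse. The 6 VDD-F1 mice (VDD1 to VDD6) were born to dams kept on a diet without vitamin D before and during pregnancy, supplemented with calcium gluconate, and the 6 VDS-F1 mice (VDS1 to VDS6) to dams on a nutrient-matched diet with vitamin D. Dams of both groups received the VDS diet after delivery and the offspring after weaning, so the diets differed until birth. Serum vitamin D is known to recover only gradually after such a switch, so exposure after birth may differ too. The sources used here do not tie mice to litters, so p-values measure the spread between mice, some of which may share a dam.

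Between 14275793 and 20815066 fragments per library were counted on genes. Hepatocyte markers were high in every liver, with the 8 markers summing to between 75990 and 104243 CPM (counts scaled to the TMM-adjusted library size). Among 5 markers of intestinal epithelium, Cdx2 was at 0 in every mouse, while Fabp2 was at 18.4 to 51.5 CPM, Lgals4 at 0.280 to 3.85 and Vil1 at 0.0687 to 0.699. A liver weight was recorded in the study for VDD4 to VDD6 and VDS3 to VDS6, 7 mice, and not for the other 5, so values are also given within these sets. This record stands beside the histology images in the study's supplement and not in the sample labels, so every result on the sets rests on matching its mouse names to the libraries. VDD2 stood apart: its stellate cell markers summed to 937 CPM, against 305 to 604 in the other 11 mice, and its cholangiocyte markers to 117 CPM, against 23.9 to 72.1. The diet differences of Cyp2c37, Cyp2c50 and Cyp2c54 and the interaction calls are also given without VDD2, while the marker comparisons between diets include it and were not repeated without it.

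Of the 10 genes, 9 lie in 1 cluster on chromosome 19 of GRCm38. From Cyp2c55 (39007019-39042693, plus strand) the cluster runs through Cyp2c29 (39269405-39330713, plus), Cyp2c38 (39389556-39463075, minus), Cyp2c39 (39510862-39568529, plus), Cyp2c40 (39767071-39812814, minus), Cyp2c37 (39992424-40012243, plus), Cyp2c54 (40037940-40073827, minus) and Cyp2c50 (40089688-40113950, plus) to Cyp2c70 (40153353-40187333, minus). Cyp2c44 lies apart on the same chromosome, at 44005022-44029208 on the minus strand. Cyp2c37, Cyp2c54 and Cyp2c50 are next to each other in this order, and they are the members with the largest differences between diets below.

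The neighbours Cyp2c37, Cyp2c50 and Cyp2c54 were also the closest in sequence. Their coding sequences, 1470 bases each, were identical at 96.1% of aligned positions for Cyp2c37 and Cyp2c50, 95.2% for Cyp2c50 and Cyp2c54, and 95.1% for Cyp2c37 and Cyp2c54. Cyp2c38 and Cyp2c39 shared 94.2%. Cyp2c44 was the most distant, with 60.3% to 65.4% identity to the other members.

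**Figure D1:**
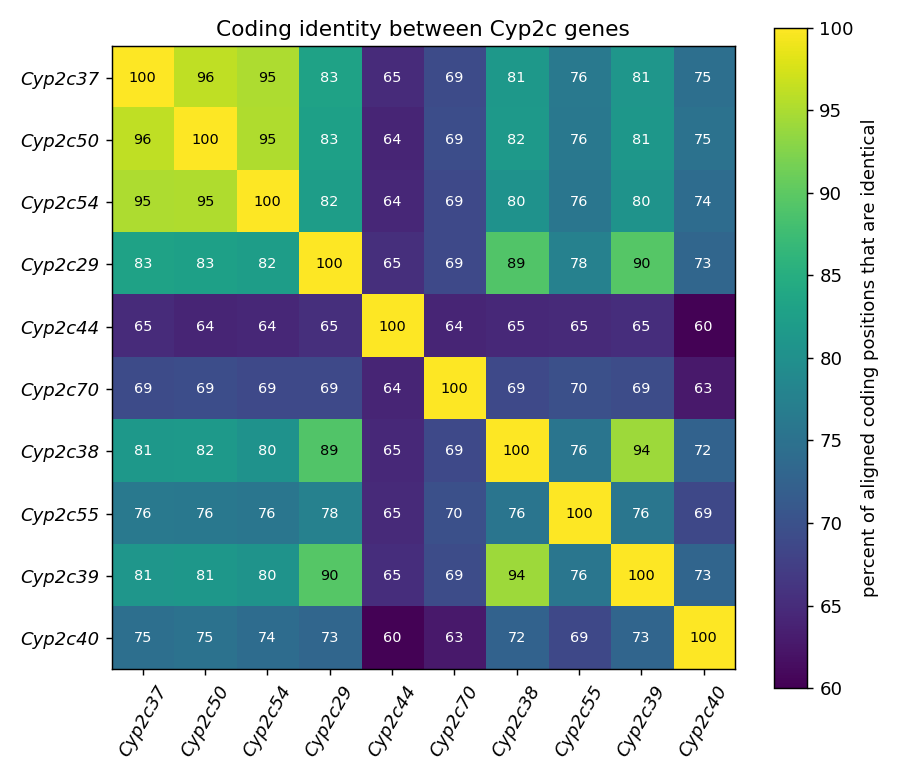
Percent of aligned coding positions that are identical between each pair of the 10 genes (rows and columns), rounded to whole percents. Cyp2c37, Cyp2c50 and Cyp2c54 form the block of highest identity, while Cyp2c44 has 60.3% to 65.4% identity to the others.

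Such likeness limits the counts, since a fragment that maps to several places is left out. Of the stretches of 50 bases in the annotated transcripts of Cyp2c37, 30.1% also occur in another gene, against 25.7% for Cyp2c54, 18.3% for Cyp2c50 and 60.3% for Cyp2c40. At 100 bases the shares were 4.70%, 7.59%, 5.35% and 34.4%. None of the stretches of Cyp2c44 or Cyp2c70 was shared. The values of Cyp2c40 in particular, whose stretches recur in Cyp2c67, Cyp2c68 and Cyp2c69, are uncertain, and reads can be assigned to the wrong member of the Cyp2c37, Cyp2c50 and Cyp2c54 group.

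The study's qRT-PCR primer pair for Cyp2c50 shows how close these genes are. Both primers lie in coding sequence, the forward one in exon 8 (chr19:40111317-40111336) and the reverse one in exon 9 (chr19:40113513-40113532) of 9 exons in Cyp2c50. The lines give each primer, which is identical to its site in Cyp2c50, and the best sites in transcripts of Cyp2c37 and Cyp2c54, written as the primer reads, with capitals at bases that differ from the primer.
Forward primer and Cyp2c50: tagcaaagagttccccaacc
Forward site in Cyp2c54: tagcaaGgagttccccaacc
Forward site in Cyp2c37: CagcaCGgagttccccaacc
Reverse primer, Cyp2c50, Cyp2c54 and Cyp2c37: ggtgaaccagaggtttcagg
The forward site had 1 mismatch in Cyp2c54 (A7G) and 3 in Cyp2c37 (T1C, A6C and A7G), with positions counted from 1 at the 5′ end of the primer, the primer's base first. The reverse site had 0 mismatches in all 3 genes.

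Promoter windows, from 250 bases before to 50 bases after the annotated start, were taken from RefSeq (GRCm38.p6), which gave an entry for 8 of the 10 members (2 windows for Cyp2c39, none used for Cyp2c44 and Cyp2c54). The windows of Cyp2c37 (chr19:39992174-39992473, plus strand) and Cyp2c50 (chr19:40089429-40089728, plus strand) are shown because these neighbours had a like pattern across the mice, at different levels, and both have an entry. Capitals mark bases that differ from, or have no partner in, the other window.
Cyp2c37: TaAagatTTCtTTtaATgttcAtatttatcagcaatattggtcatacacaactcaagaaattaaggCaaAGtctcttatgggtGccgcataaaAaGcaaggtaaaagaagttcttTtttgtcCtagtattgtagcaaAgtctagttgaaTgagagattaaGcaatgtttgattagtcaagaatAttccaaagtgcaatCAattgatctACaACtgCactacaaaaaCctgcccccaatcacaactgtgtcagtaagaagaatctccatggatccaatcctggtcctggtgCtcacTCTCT
Cyp2c50: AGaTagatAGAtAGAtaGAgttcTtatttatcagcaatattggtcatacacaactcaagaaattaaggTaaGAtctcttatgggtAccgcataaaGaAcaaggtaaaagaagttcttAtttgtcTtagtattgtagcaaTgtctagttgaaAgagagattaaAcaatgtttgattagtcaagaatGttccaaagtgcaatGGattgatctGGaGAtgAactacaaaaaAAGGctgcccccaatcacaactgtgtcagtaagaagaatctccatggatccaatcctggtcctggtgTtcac
The windows were identical at 86.6% of aligned positions, while those of Cyp2c50 and Cyp2c70 shared 49.6%. Motifs were searched on both strands. The nuclear receptor half-site AGTTCA, which occurs in 14.0% of 32851 mouse promoter windows, was in the windows of Cyp2c50, Cyp2c40 and 1 of Cyp2c39, and not in that of Cyp2c37. AGGTCA, in 16.3% of all windows, was in those of Cyp2c29, Cyp2c70 and 1 window of Cyp2c39. That window of Cyp2c39 (chr19:39347096-39347395) lies far upstream of the gene position given above, and the window of Cyp2c29 (chr19:39286835-39287134) lies inside its gene, so neither is at the GENCODE start. The HNF4 site CAAAGTCCA, in 0.475% of all windows, was in those of Cyp2c40 and Cyp2c70. STAT5 (TTCNNNGAA, 8.30% of windows) and C/EBP (TTGCGCAA, 0.183%) motifs were in 0 of the 9 member windows. A match is a description of letters only.

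Between the diets, Cyp2c37, Cyp2c50 and Cyp2c54 had the largest differences of the family, all lower in VDD-F1, and Cyp2c29 was next. None of the 10 members passed edgeR's test over 12453 genes at an adjusted p under 0.05 with a log2-fold change above 1 or below -1 (a DEG), where 0.0402% of all genes tested did. At an unadjusted p under 0.05, 4 of 10 members were lower and 0 higher, where 6.29% of all genes were lower and 9.55% higher. DESeq2's Wald test on the same counts called 3 of 10 members lower, Cyp2c37, Cyp2c50 and Cyp2c54, where it called 0.281% of all genes lower. voom with sample quality weights also called 3 members lower, where it called 0.570% of all genes lower. The edgeR fit in its newer form and voom without weights called 0. In 0 of 10 members were all 6 VDD-F1 mice below all 6 VDS-F1 mice in CPM, as in 0.570% of genes.

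**Figure D2:**
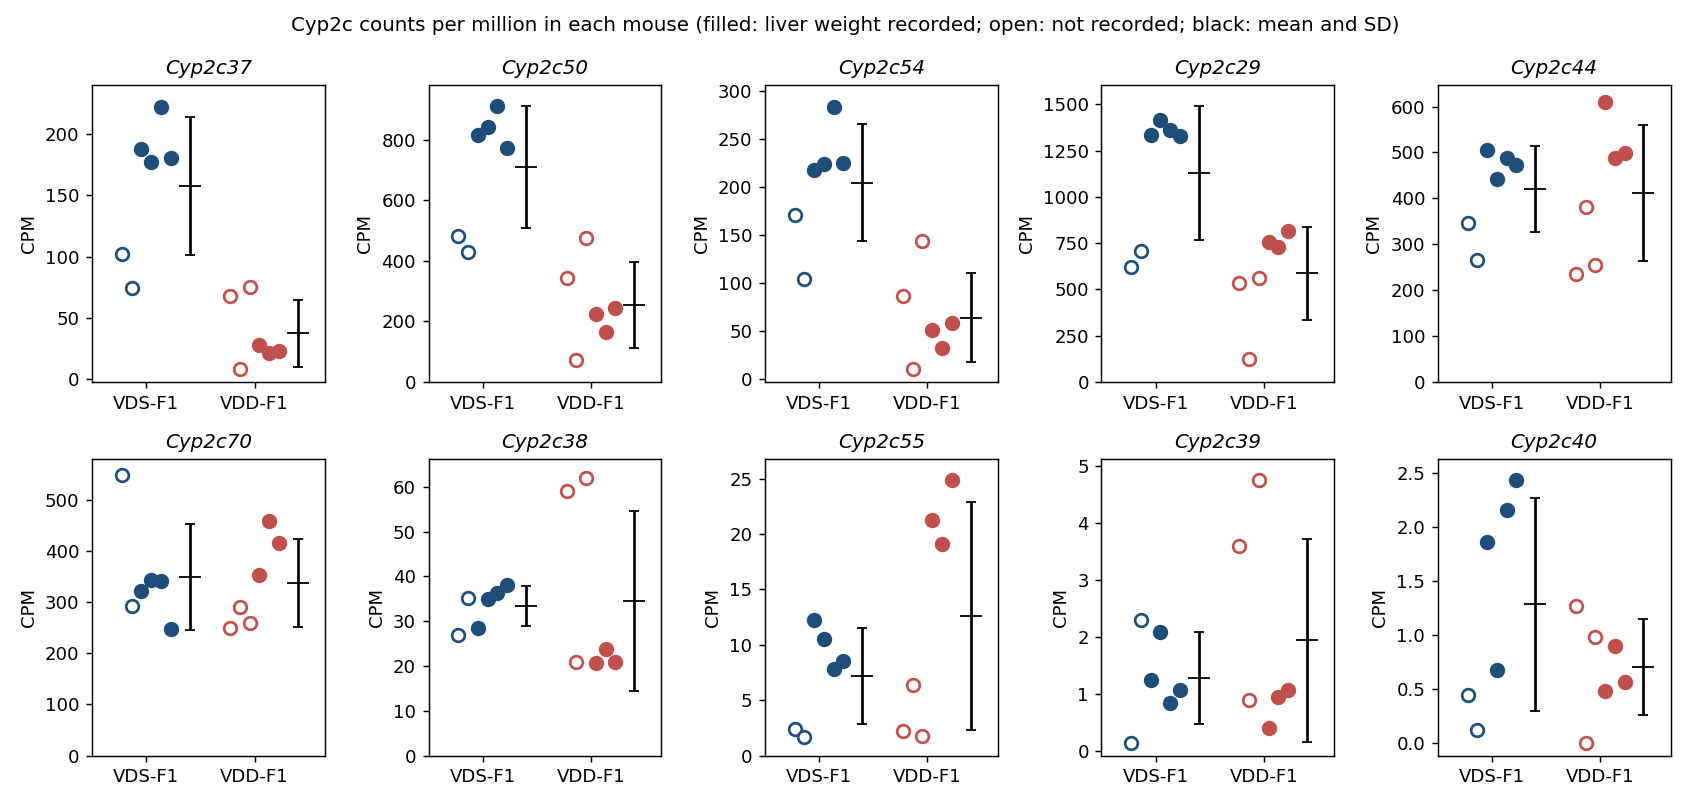
CPM (vertical axis, from 0) of each of the 10 genes in the 6 VDS-F1 and 6 VDD-F1 mice, 1 point per mouse, filled where a liver weight was recorded and open where not, with the group mean and SD in black. In Cyp2c37 the VDD-F1 mice sit between 8.72 and 75.5 CPM and the VDS-F1 mice between 74.9 and 222 CPM.

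Cyp2c37 encodes a P450 that forms hydroxylated and epoxidized products of arachidonic acid. In the VDD-F1 mice 1 to 6 its level was 68.2, 8.72, 75.5, 27.9, 21.7 and 23.0 CPM. In the VDS-F1 mice 1 to 6 it was 103, 74.9, 188, 178, 222 and 180 CPM. The groups met at VDD3 and VDS2, and the other 10 mice did not overlap. The VDD-F1 mean was 37.5 ± 27.4 CPM, against 158 ± 56.4 CPM for VDS-F1 (SD, n = 6 each). The log2-fold change was -2.08 (standard error 0.44, 95% interval -3.03 to -1.13), 4.22-fold lower in VDD-F1, with an edgeR adjusted p of 0.0812 and a DESeq2 adjusted p of 0.00274.

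Cyp2c50, an arachidonate epoxygenase, was the second most abundant member per length in VDS-F1 livers. Its levels in VDD1 to VDD6 were 343, 72.5, 477, 225, 164 and 243 CPM. In VDS1 to VDS6 they were 484, 429, 817, 842, 911 and 775 CPM. VDD3 alone reached the range of the VDS-F1 mice, above VDS2. The means were 254 ± 141 and 710 ± 202 CPM (SD, n = 6 each), and the log2-fold change was -1.48 (standard error 0.35, 95% interval -2.23 to -0.73), 2.79-fold lower in VDD-F1. The adjusted p was 0.0883 by edgeR and 0.00629 by DESeq2.

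Cyp2c54, a further epoxygenase, had 87.0, 11.1, 144, 51.5, 33.0 and 59.1 CPM in VDD1 to VDD6. VDS1 to VDS6 had 171, 104, 218, 224, 284 and 225 CPM. VDD3 was again above VDS2, and otherwise the groups did not overlap. The means were 64.2 ± 46.6 and 204 ± 60.8 CPM (SD, n = 6 each), and the log2-fold change was -1.67 (standard error 0.44, 95% interval -2.61 to -0.73), 3.19-fold lower. The adjusted p was 0.100 by edgeR and 0.0271 by DESeq2.

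The edgeR calls changed when single mice were left out, which was done with edgeR alone. Without VDD1 edgeR called Cyp2c37 (log2-fold change -2.34, adjusted p = 0.0175) and Cyp2c50 (-1.59, adjusted p = 0.0373), where 0.385% of all genes were called lower. Without VDD3 it called Cyp2c37 (-2.41, adjusted p = 0.0337), Cyp2c50 (-1.77, adjusted p = 0.0350) and Cyp2c54 (-2.09, adjusted p = 0.0364), where 0.168% of all genes were called lower. Over all genes the calls in either direction rose as well, from 5 to 260 without VDD1 and 94 without VDD3. The edgeR unadjusted p of Cyp2c50 was 0.00078 in all mice and 0.00087 without VDD1. Its adjusted p thus fell there through the p-values of other genes and not its own. Without VDD2, the lowest mouse for all 3 genes, the log2-fold changes by edgeR were -1.87, -1.29 and -1.45 with adjusted p of 0.0920, 0.0988 and 0.125.

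Cyp2c29, one of the most abundant P450 genes of mouse liver and a producer of epoxyeicosatrienoic acids, had 536, 124, 560, 756, 728 and 816 CPM in VDD1 to VDD6. VDS1 to VDS6 had 620, 705, 1336, 1414, 1360 and 1329 CPM. VDD4, VDD5 and VDD6 were above VDS1 and VDS2, so the groups overlapped. The means were 587 ± 252 and 1127 ± 362 CPM (SD, n = 6 each). The log2-fold change was -0.94 (standard error 0.35, 95% interval -1.70 to -0.19), 1.92-fold lower in VDD-F1, with an edgeR unadjusted p of 0.0179 and adjusted p of 0.221, and a DESeq2 adjusted p of 0.179.

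Cyp2c44, an epoxygenase of liver and kidney, differed little between diets in the mean. VDD1 to VDD6 had 236, 380, 256, 610, 488 and 499 CPM. VDS1 to VDS6 had 346, 266, 506, 441, 487 and 473 CPM. In both diets each mouse whose liver weight was recorded had more than each mouse without. The means were 411 ± 148 and 420 ± 94.3 CPM (SD, n = 6 each), with a log2-fold change of -0.03 (95% interval -0.52 to 0.46, edgeR adjusted p = 0.971).

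Cyp2c70, the muricholic acid enzyme, had 250, 290, 259, 354, 459 and 415 CPM in VDD1 to VDD6. VDS1 to VDS6 had 548, 293, 322, 342, 341 and 246 CPM. VDS1 was far above the other 5 VDS-F1 mice. The means were 338 ± 86.1 and 349 ± 104 CPM (SD, n = 6 each), with a log2-fold change of -0.05 (95% interval -0.47 to 0.37, edgeR adjusted p = 0.937).

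The remaining members were low. Cyp2c38, an epoxygenase, had 59.1, 20.9, 62.0, 20.6, 23.9 and 20.8 CPM in VDD1 to VDD6, and 26.9 to 38.1 CPM in the VDS-F1 mice (median 35.1). VDD1 and VDD3 were above all VDS-F1 mice and the other 4 VDD-F1 mice below all of them. The log2-fold change of 0.05 (95% interval -0.57 to 0.66, edgeR adjusted p = 0.962) thus lay between mice above and mice below the VDS-F1 range.

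Cyp2c55, which hydroxylates arachidonic acid and is known to be induced by ligands of CAR and PXR, had 2.21, 6.37, 1.73, 21.3, 19.1 and 24.8 CPM in VDD1 to VDD6. VDS1 to VDS6 had 2.37, 1.652, 12.2, 10.6, 7.78 and 8.51 CPM. VDD4, VDD5 and VDD6 were above all VDS-F1 mice. The means were 12.6 ± 10.3 and 7.18 ± 4.31 CPM (SD, n = 6 each), with a log2-fold change of 0.82 (95% interval -0.52 to 2.16, edgeR adjusted p = 0.553).

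Cyp2c39, known to act on retinoic acid, ranged from 0.412 to 4.75 CPM with VDD and from 0.148 to 2.30 CPM with VDS. Cyp2c40, a female-biased member in the mouse, ranged from 0 to 1.26 CPM with VDD and from 0.118 to 2.43 CPM with VDS, or 185 counts over 12 libraries. The intervals were wide and held 0: the log2-fold changes were 0.58 (95% interval -0.74 to 1.90, edgeR adjusted p = 0.692) and -0.86 (95% interval -2.34 to 0.61, edgeR adjusted p = 0.577).

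Members of the family were compared with each other per length, as TPM, a transcript share scaled for exon length, within a mouse. In VDS-F1 livers Cyp2c29 led with a mean of 634 ± 222 TPM, followed by Cyp2c50 with 419 ± 124, Cyp2c44 with 338 ± 86.3, Cyp2c70 with 324 ± 160, Cyp2c54 with 196 ± 52.3 and Cyp2c37 with 146 ± 46.2 (SD, n = 6). Cyp2c29 was above Cyp2c50, and Cyp2c50 above Cyp2c44, in 6 of 6 mice, although their ranges overlapped. Cyp2c44 and Cyp2c70 could not be ordered, with Cyp2c44 higher in 4 of 6 mice. Cyp2c38 followed at 20.4 ± 4.58, Cyp2c55 at 6.21 ± 4.23, Cyp2c39 at 1.29 ± 0.995 and Cyp2c40 at 0.974 ± 0.652 TPM (SD, n = 6).

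The order was another in VDD-F1 livers, where Cyp2c44 (390 ± 154 TPM), Cyp2c29 (379 ± 178) and Cyp2c70 (347 ± 113) led and Cyp2c50 came next with 164 ± 71.0 TPM (SD, n = 6). Cyp2c44 was above Cyp2c29 in 2 of 6 mice, so the first places were not distinct. Cyp2c54 and Cyp2c37 followed, at 66.4 ± 38.5 and 38.3 ± 24.4 TPM (SD, n = 6).

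As a share of the summed TPM of the 10 members, Cyp2c37, Cyp2c50 and Cyp2c54 made up 32.8%, 32.3%, 37.2%, 37.3%, 40.8% and 38.1% in VDS1 to VDS6. In VDD1 to VDD6 the share was 31.9%, 8.74%, 38.4%, 14.3%, 10.8% and 15.05%. VDD1 and VDD3 were thus near the VDS-F1 mice and the other 4 VDD-F1 mice far below. Cyp2c44 held 14.9% to 17.3% of the family in the VDS-F1 mice, 17.1% and 15.9% in VDD1 and VDD3, and 27.0% to 42.9% in the other 4 VDD-F1 mice. The 10 members summed to 1741 ± 445 CPM (SD, n = 6) in the VDD-F1 group, against 3011 ± 722 CPM (SD, n = 6) in the VDS-F1 group. Their part of all counts on genes was 0.104% to 0.219% per VDD-F1 mouse and 0.188% to 0.360% per VDS-F1 mouse.

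**Figure D3:**
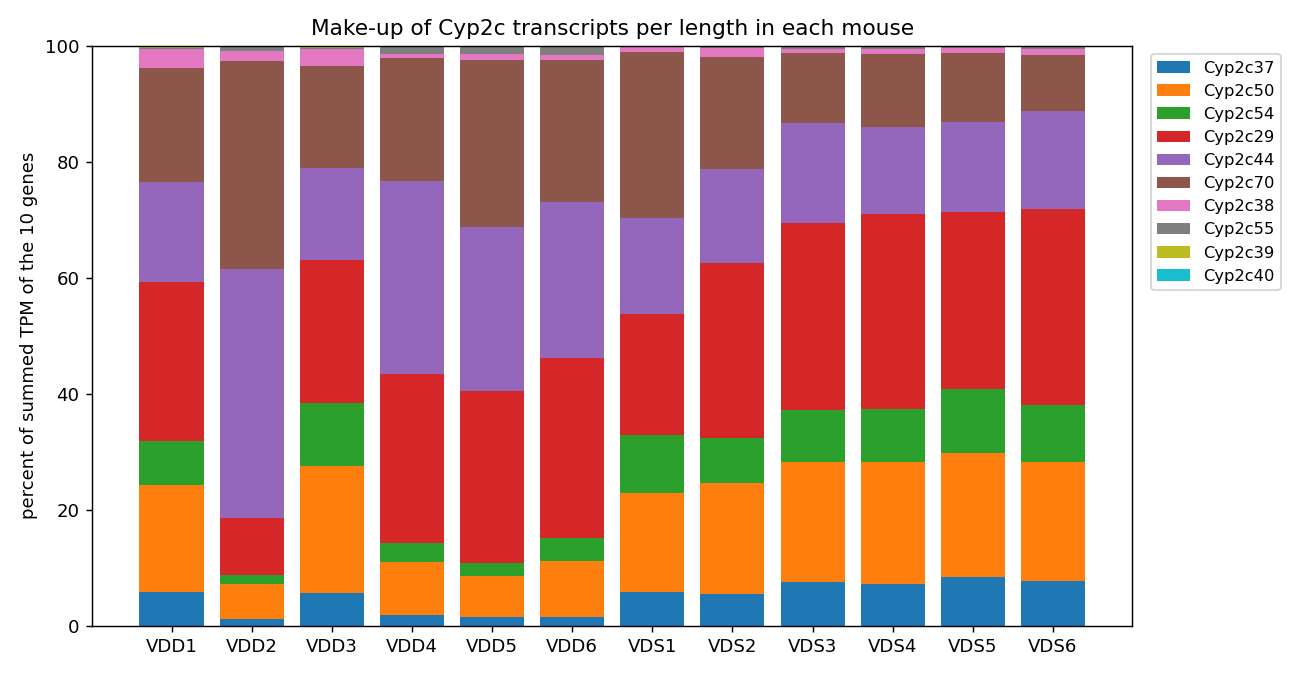
Share of each gene (colours) in the summed TPM of the 10 Cyp2c genes, in percent, for each of the 12 mice (bars). Cyp2c37, Cyp2c50 and Cyp2c54, at the foot of each bar, sum to 32.3% to 40.8% in the VDS-F1 mice and to 8.74% to 38.4% in the VDD-F1 mice.

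Within the set of 7 mice that had a liver weight several members were called between the diets, and the set of 5 gave smaller differences for most. In the 7 mice edgeR called Cyp2c37, Cyp2c50 and Cyp2c54 lower in VDD-F1, where 1.26% of 12369 genes were called lower, and Cyp2c55 higher, where 3.07% were called higher. The log2-fold changes were -2.99 for Cyp2c37 (standard error 0.12, adjusted p = 1.88e-07), -1.99 for Cyp2c50 (0.13, adjusted p = 4.19e-06), -2.31 for Cyp2c54 (0.18, adjusted p = 1.42e-05) and 1.15 for Cyp2c55 (0.17, adjusted p = 0.00116). Cyp2c29 (-0.83, adjusted p = 7.84e-05) and Cyp2c38 (-0.66, adjusted p = 0.00539) passed the adjusted p but not the fold threshold. Of the 12369 genes, 1358 had an adjusted p under 0.05 in these mice.

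For these 7 mice Cyp2c37 averaged 24.2 ± 3.30 CPM in VDD-F1 (SD, n = 3) and 192 ± 20.7 CPM in VDS-F1 (SD, n = 4). Cyp2c50 averaged 210 ± 41.4 and 836 ± 56.9 CPM, and Cyp2c55 21.7 ± 2.91 and 9.77 ± 2.02 CPM. For these 3 genes no VDD-F1 mouse of this set overlapped a VDS-F1 mouse. With 3 against 4 mice such a gap is easily reached, and its share over all genes was not counted.

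In the 5 mice lacking a liver weight edgeR called 0 of the 9 members tested, where 0.00% of 12541 genes were called. There, 473 of all genes and 1 member, Cyp2c70 (log2-fold change -0.66, edgeR adjusted p = 0.9998), had an unadjusted p under 0.05. Cyp2c40 did not pass the filter there. The log2-fold changes were -0.81 for Cyp2c37, -0.62 for Cyp2c50, -0.78 for Cyp2c54, -0.71 for Cyp2c29 and 0.78 for Cyp2c55, with standard errors between 0.56 and 0.83. No other tool was run on these 5 mice alone.

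**Figure D4:**
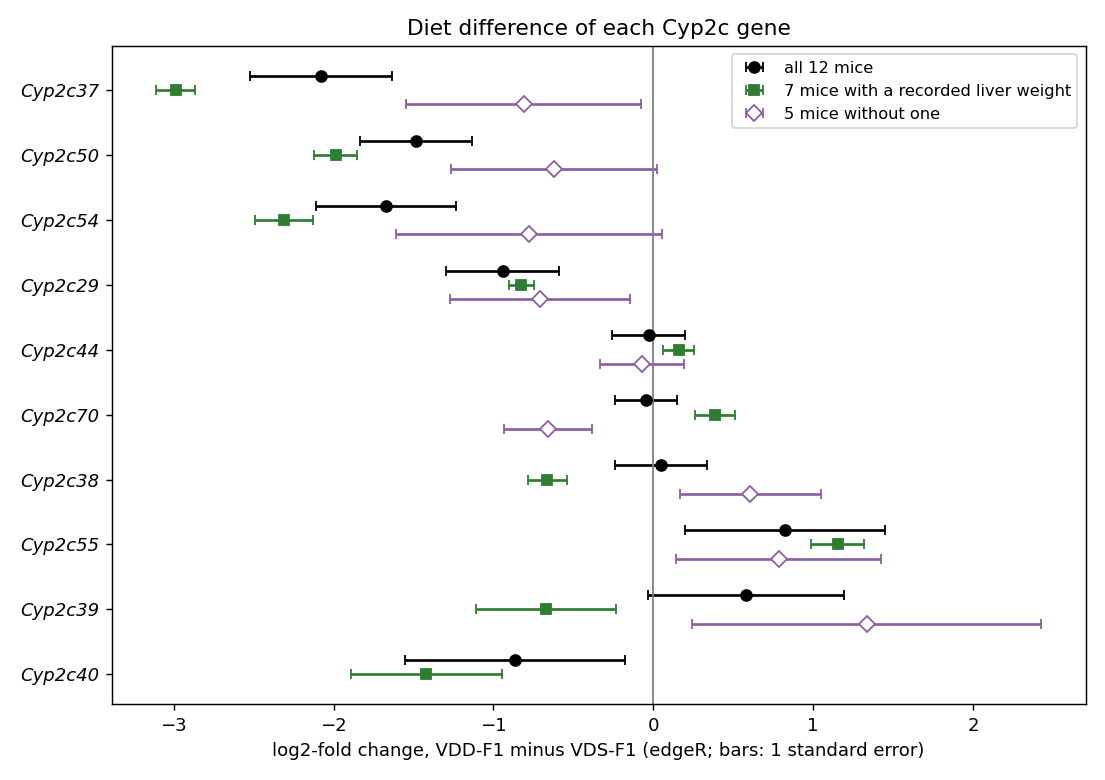
Log2-fold change from VDS-F1 to VDD-F1 (horizontal axis) of each gene by edgeR in all 12 mice, in the 7 mice whose liver weight was recorded and in the 5 others, with bars of 1 standard error. For Cyp2c37 the 3 values are -2.08, -2.99 and -0.81, and for Cyp2c40 the third is missing because it did not pass the filter.

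Whether the diet difference itself differed between the sets was tested as an interaction. edgeR called 0 of 10 members, where 0.0883% of genes were called, and 3 of 10 had an unadjusted p under 0.05, where 9.01% of genes did. These were Cyp2c37 (-2.18, adjusted p = 0.384), Cyp2c38 (-1.27, adjusted p = 0.395) and Cyp2c70 (1.04, adjusted p = 0.277). DESeq2 called 0. Without VDD2, edgeR called 4 of 10 members, where 2.68% of genes were called: Cyp2c37 (-2.68, adjusted p = 3.32e-05), Cyp2c38 (-1.62, adjusted p = 0.00101), Cyp2c50 (-1.83, adjusted p = 0.000892) and Cyp2c54 (-2.06, adjusted p = 0.0100). With VDD2 kept but no filter on low counts, edgeR called 5 members, these 4 and Cyp2c70, where 1.49% of genes were called. The interaction calls thus changed with VDD2 and with the filter. Without VDD3 edgeR called 0 members. The interactions of Cyp2c50 and Cyp2c54 were then -0.87 and -0.83, against -1.37 and -1.54 in all mice. VDD2 has no recorded liver weight, and its levels of Cyp2c37, Cyp2c50 and Cyp2c54 were under those of VDD4 to VDD6.

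Between the sets, with diet in the model, edgeR called Cyp2c55 higher in the 7 mice than in the 5 by 2.47 on the log2 scale (standard error 0.28, adjusted p = 0.000598) and Cyp2c44 by 0.76 (0.13, adjusted p = 0.00706). Thus 2 of 10 members were higher, where 0.899% of genes were called higher, and 0 lower, where 1.56% were called lower. Cyp2c55 was at 1.652 to 6.37 CPM in the 5 mice without and 7.78 to 24.8 CPM in the 7 mice with a recorded weight. Cyp2c29 was higher by 0.97 (adjusted p = 0.0870), and by 0.77 without VDD2 (adjusted p = 0.00138). Without VDD2, 498 of 12369 genes had an adjusted p under 0.05 in this contrast, against 306 of 12453 with all mice. Cyp2c37, Cyp2c50 and Cyp2c54 had set differences of -0.09, 0.12 and -0.05, with adjusted p of 0.936 to 0.979.

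Of the other Cyp2c genes, Cyp2c67 and Cyp2c68 passed the filter and their diet differences were small. Cyp2c67 averaged 164 ± 33.2 CPM with VDD and 190 ± 42.1 CPM with VDS (SD, n = 6 each, log2-fold change -0.21, edgeR adjusted p = 0.564). Cyp2c68 averaged 120 ± 21.2 and 116 ± 22.8 CPM (SD, n = 6 each, 0.05, edgeR adjusted p = 0.906). Cyp2c69 was under 1 CPM in every mouse, Cyp2c65 had counts in 1 mouse only, and Cyp2c66 was at 0 in all 12.

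Genes that feed arachidonic acid to these enzymes were examined next. Of 10 genes of arachidonate release and supply, all tested, 0 were DEGs, 4 were higher in VDD-F1 at an unadjusted p under 0.05 and 0 lower, where 9.55% of all genes were higher and 6.29% lower. Their median log2-fold change was 0.38 against 0.0041 over all genes. Acsl4, which activates arachidonic acid for storage in membranes, ranged from 98.1 to 169 CPM with VDD and from 83.7 to 107 CPM with VDS (0.55, edgeR adjusted p = 0.0855, DESeq2 adjusted p = 0.00560). Fads1, a desaturase that makes arachidonic acid, ranged from 643 to 1248 and from 459 to 919 CPM (0.54, edgeR adjusted p = 0.197).

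Downstream, 2 of 4 epoxide hydrolases passed the filter, and neither had an unadjusted p under 0.05. Ephx2, the soluble hydrolase of the epoxides, averaged 687 ± 190 CPM with VDD and 827 ± 45.7 CPM with VDS (SD, n = 6 each, -0.27, edgeR adjusted p = 0.414), and Ephx1, the microsomal form, 467 ± 189 and 442 ± 210 CPM (0.08, edgeR adjusted p = 0.941). Of 6 Cyp2j genes, the other epoxygenase family, 3 were tested with 0 at an unadjusted p under 0.05. Among them Cyp2j5 had a log2-fold change of -0.16 and Cyp2j6 of -0.13. Of 4 redox partners 1 was lower at an unadjusted p under 0.05 (6.29% of all genes), Cyb5a (-0.30, edgeR adjusted p = 0.223), and Cyb5b was next (-0.24, edgeR adjusted p = 0.501). Of 12 cyclooxygenase and lipoxygenase pathway genes 6 were tested and 0 had an unadjusted p under 0.05. The smallest p-values belonged to Hpgd (-0.35, edgeR adjusted p = 0.337) and Lta4h (-0.12, edgeR adjusted p = 0.433). None of these genes was a DEG by edgeR.

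Of 20 genes known to regulate Cyp2c genes, 18 were tested, 0 were DEGs and 3 were lower in VDD-F1 at an unadjusted p under 0.05, where 6.29% of all genes were lower. The median log2-fold change was -0.17. Nr1i3, which encodes CAR, had 56.8, 11.6, 32.6, 14.0, 13.8 and 15.2 CPM in VDD1 to VDD6 and 32.8 to 61.3 CPM in the VDS-F1 mice (-0.83, edgeR adjusted p = 0.273). All VDD-F1 mice but VDD1 were below the VDS-F1 mice, VDD3 only just. VDD2 and VDD4 to VDD6, at 15.2 CPM or less, are also the 4 mice with the lowest levels of Cyp2c37, Cyp2c50 and Cyp2c54. Cyp2c55 was highest in VDD4 to VDD6, at 19.1 to 24.8 CPM. The part of Nr1i3 in these values was not tested.

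Markers of pericentral hepatocytes were lower in sum in the same VDD-F1 mice, although single markers differed in pattern. Of 9 such markers, all tested, 3 were lower in VDD-F1 at an unadjusted p under 0.05 and 0 were higher, where 6.29% and 9.55% of all genes were, and the median log2-fold change was -0.45. Cyp1a2 was called a DEG (-1.35, edgeR adjusted p = 0.0269, DESeq2 adjusted p = 6.65e-08), and Cyp2e1 followed (-0.75, edgeR adjusted p = 0.174, DESeq2 adjusted p = 0.0460). The 9 markers summed to 8011, 3662, 9824, 4509, 3902 and 4162 CPM in VDD1 to VDD6 and to 8112 to 10164 CPM in the VDS-F1 mice. Cyp2e1 made up much of these sums, with 4220, 2130, 6037, 2527, 2098 and 2243 CPM in VDD1 to VDD6 and 4633 to 6542 CPM in the VDS-F1 mice. Cyp1a2 was lower in all 6 VDD-F1 mice (148 to 361 CPM) than in any VDS-F1 mouse (462 to 861 CPM), VDD1 and VDD3 included. All markers but Cyp1a2 overlapped between the diets. Axin2 ranged from 5.97 to 12.4 against 7.55 to 13.7 CPM. Rgn, also among the 3 lower markers, ranged from 428 to 635 against 558 to 702 CPM. Glul was at 261 to 392 CPM in VDD2 and VDD4 to VDD6, against 918 to 1477 CPM in the VDS-F1 mice. Slc1a2 was at 80.8 to 118 CPM in these 4 mice, against 189.5 to 214.5 CPM in the VDS-F1 mice. None of the 9 was at 0 in either group. The same 4 VDD-F1 mice were low in the pericentral sum and in the summed CPM of Cyp2c37, Cyp2c50 and Cyp2c54, while VDD1 was just under the VDS-F1 range of the pericentral sum and VDD3 within it. In bulk RNA, fewer cells of a type and less RNA per cell cannot be told apart, and the part of the pericentral markers in the Cyp2c differences was not tested.

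**Figure D5:**
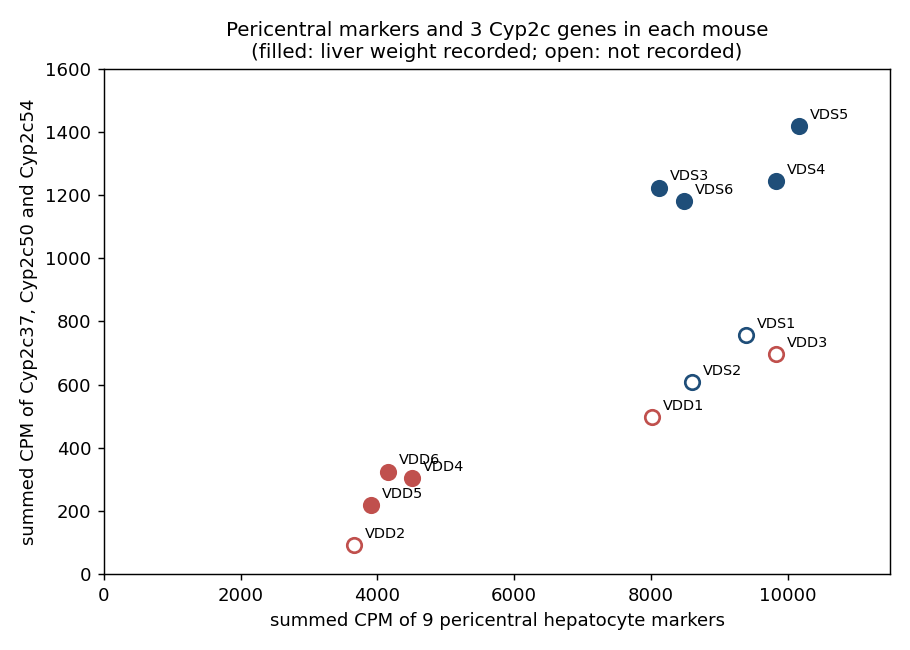
Summed CPM of Cyp2c37, Cyp2c50 and Cyp2c54 (vertical axis) against the summed CPM of 9 pericentral hepatocyte markers (horizontal axis), 1 point per mouse, red for VDD-F1 and blue for VDS-F1, filled where a liver weight was recorded. VDD2, VDD4, VDD5 and VDD6 lie at 3662 to 4509 CPM of markers and 92.3 to 325 CPM of the 3 genes, and the other 8 mice at 8011 CPM of markers or more.

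Markers of other cell types were summed in the same way, and their counts at an unadjusted p under 0.05 stand against 9.55% of all genes higher and 6.29% lower. Of 8 periportal markers 3 were higher in VDD-F1 at an unadjusted p under 0.05, led by Hsd17b13 (0.45, edgeR adjusted p = 0.0640, DESeq2 adjusted p = 0.000120) and Aldh1b1 (1.028, edgeR adjusted p = 0.0935, DESeq2 adjusted p = 0.00451), and their sum was 6742 to 11652 CPM with VDD and 6988 to 9367 CPM with VDS. Of 8 stellate cell markers 4 were higher, led by Col3a1 (1.78, edgeR adjusted p = 0.0855, DESeq2 adjusted p = 0.00756) and Col1a1 (2.27, edgeR adjusted p = 0.0883, DESeq2 adjusted p = 0.00825), with sums of 324 to 937 and 305 to 470 CPM. Of 6 cholangiocyte markers 4 were higher, led by Spp1 (0.83, edgeR adjusted p = 0.275) and Epcam (1.06, edgeR adjusted p = 0.287), with sums of 23.9 to 117 and 28.1 to 51.6 CPM. Of 8 hepatocyte markers 1 was lower, Serpina1c (-0.60, edgeR adjusted p = 0.0855, DESeq2 adjusted p = 0.00117), and 1 higher, Hpx (0.59, edgeR adjusted p = 0.137, DESeq2 adjusted p = 0.0318). Of the list genes given with an edgeR adjusted p alone, none had a DESeq2 adjusted p under 0.05.

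Of 8 endothelial markers 2 were lower and 1 higher, with Clec4g (-0.28, edgeR adjusted p = 0.171) and Stab2 (-0.25, edgeR adjusted p = 0.259) at the smallest p-values and sums of 231 to 286 and 216 to 311 CPM. Of 8 Kupffer cell markers 2 were lower, Timd4 (-0.81, edgeR adjusted p = 0.235) and Clec4f (-0.50, edgeR adjusted p = 0.249), with sums of 160 to 404 and 209 to 381 CPM. Of 5 intestinal markers 2 were tested, Fabp2 (0.46, edgeR adjusted p = 0.413) and Lgals4 (0.30, edgeR adjusted p = 0.846). These markers' part in the Cyp2c values was not tested.

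Over the 12 mice the genes most like each member were found by the root mean square difference of log2 CPM after centring each gene, with 12453 genes compared. The 2 genes nearest to Cyp2c37 were Cyp2c54 (0.33) and Cyp2c50 (0.43), and those nearest to Cyp2c54 were Cyp2c50 (0.30) and Cyp2c37 (0.33). After Cyp2c54, the gene nearest to Cyp2c50 was the pericentral marker Cyp1a2 (0.39). These 3 members share part of their sequence, as given above, so some of the likeness can come from reads.

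The other members had nearest genes outside the family. They were Car1 (0.31) and Myl6b (0.41) for Cyp2c29, Tie1 (0.17) and Amdhd1 (0.19) for Cyp2c44, and Orc4 (0.16) and Mob4 (0.18) for Cyp2c70. For Cyp2c38 they were Rdh16 (0.19) and Mgll (0.20), and for Cyp2c55 Cyp3a11 (0.51) and Gsta2 (0.58). For the 2 members with few counts the distances were larger: Tox (0.66) and Wfdc2 (0.67) for Cyp2c39, and Serpina4-ps1 (0.76) and Myl6b (0.80) for Cyp2c40. A gene that varies little, such as Cyp2c70 with an SD of 0.36 in log2 CPM, is near many genes by this measure, while Cyp2c37 had an SD of 1.501.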

How the data were processed

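RNA-seq libraries of 12 livers (6 VDD-F1, 6 VDS-F1) were prepared with ribosomal RNA depletion. After adapter trimming, the authors used STAR (mm10, GENCODE M15), whose raw per-gene fragment counts, not normalized, were deposited with and without regard to strand. Fragments with several alignments are not in these counts. The reverse-strand count was used, which held 92.7% to 95.8% of stranded counts per library. Between 37.4% and 50.3% of fragments lay on no gene row and stayed out of library sizes. Identifiers were matched to GENCODE M21 (GRCm38) for 52489 of 52636 genes.

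The 12453 genes averaging 12 counts or more were tested with edgeR 4.0.16 in R 4.3.3 (TMM, quasi-likelihood, legacy form) and Benjamini-Hochberg adjustment over all genes, with no p adjusted over the members. DEGs needed an adjusted p under 0.05 together with an absolute log2-fold change over 1. Interaction and set contrasts were called on adjusted p alone. The study's methods name DESeq2, run here as version 1.42.0, with limma 3.58.1, other filters, size factors, the unstranded count, the set of mice, each set alone, each mouse left out and a replicate block as alternatives. Unweighted voom, and DESeq2 adjusted for the set, were added after the data had been seen. Standard errors are the absolute log2-fold change divided by the root of F. CPM used the TMM-scaled library size, and TPM the union of exons.

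All members were named, and of each list the 2 genes with the smallest unadjusted p, of which 1 is not reported here. Of all genes tested, the 2 nearest to each member were also named. The members and lists were chosen with earlier results of these data known. The edgeR steps were tested on simulated data. Sequences came from GENCODE M21 transcripts, RefSeq promoters and the study's primer table (Biopython 1.88). The study's qRT-PCR values were not analysed here. Same-numbered mice are different animals, so no pairing was used.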

Additional observations from a re-analysis of the deposited data

Results flagged for a closer look

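Each diet group of 6 mice was examined for a mouse far from the others, for the 10 members and their sum (22 groups), where chance alone marks about 1 group in 20. VDS1 was marked for Cyp2c70, with 548 CPM against 342 in the next highest VDS-F1 mouse (Dixon's ratio 0.681). No other group was marked.

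Cyp2c70 was also flagged because its diet groups separated in opposite directions in the sets of mice. Only the members were examined by this rule, and the share of all genes that meet it was not counted. In the set with a recorded liver weight every VDD-F1 mouse (354 to 459 CPM) was above every VDS-F1 mouse (246 to 342 CPM), and in the set without one every VDD-F1 mouse (250 to 290 CPM) was below both VDS-F1 mice (293 and 548 CPM). In the latter set the gap was narrow, between VDD2 at 290 CPM and VDS2 at 293 CPM. The interaction was 1.04 on the log2 scale (edgeR unadjusted p = 0.00345, adjusted p = 0.277), and 0.52 without VDS1 (adjusted p = 0.777).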

How the results depend on the processing

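The diet log2-fold changes of Cyp2c37 (-2.99 to -0.81), Cyp2c50 (-1.99 to -0.62), Cyp2c54 (-2.31 to -0.78), Cyp2c29 (-1.08 to -0.71), Cyp2c40 (-1.42 to -0.42) and Cyp2c55 (0.51 to 1.15) kept their sign under every alternative that gave a value, while their calls did not all hold. Against 0 members called by edgeR, DESeq2 and voom with quality weights called 3, no filter on low counts 2, the 7 mice with a recorded liver weight 4, and DESeq2 with the set as a covariate 4. In both runs with 4 calls Cyp2c55 was higher in VDD-F1 (1.02 by DESeq2 with the set, adjusted p = 0.00764). The other members called were lower. Leaving out 1 mouse gave 0 to 3. Over all genes the 5 DEGs became 253 with DESeq2, 252 with voom with quality weights, 17 with the newer form, 70 without a filter, 21 with the set as a covariate, 536 in the 7 mice, 0 in the other 5, 283 with DESeq2 and the set, 13 with voom without weights, and 0 to 260 with 1 mouse left out. The interaction calls, 0 by edgeR, became 5 without a filter and 0 to 4 with 1 mouse left out, and the set contrast called 2 to 3 members. The cause of these changes was not tested.

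With a replicate block edgeR called 17 DEGs and 0 members, with adjusted p of 0.0587 for Cyp2c37, 0.0784 for Cyp2c50 and 0.0799 for Cyp2c54. Same-numbered mice share only a number, and the correlations of their deviations ranged from -0.19 to 0.16 over 500 genes.

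The directions of 4 members, and some of the set and interaction values, turned. Cyp2c38 (0.05) became -0.30 and -0.14 with voom with and without weights, -0.15 with the set as a covariate by edgeR and by DESeq2, -0.66 in the 7 mice, -0.13 with the replicate block, and -0.20 to 0.16 with 1 mouse left out. Cyp2c39 (0.58) became -0.11 with weighted voom and -0.67 in the 7 mice. Cyp2c44 (-0.03) became 0.062 with the set as a covariate by edgeR and 0.060 by DESeq2, 0.16 in the 7 mice, and -0.18 to 0.088 with 1 mouse left out. Cyp2c70 (-0.05) became 0.11 with weighted voom, 0.39 in the 7 mice, and -0.16 to 0.13 with 1 mouse left out. With 1 mouse left out, the interaction of Cyp2c29 ranged from -0.55 to 0.16, and the set differences of Cyp2c37 from -0.49 to 0.23, Cyp2c50 from -0.10 to 0.45 and Cyp2c54 from -0.36 to 0.39. The summed CPM and the TPM of every member moved by less than 1 SD when strand was ignored. With 311 and 185 counts in all libraries, Cyp2c39 and Cyp2c40 had the lowest depth of the members, and depth and spread between mice were not separated.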
